A study of Mus musculus with 16 samples.

Results

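The genes described here encode 5 liver receptors for hormones that act on hepatocyte glucose output: the vasopressin receptor Avpr1a, the glucagon receptor Gcgr, the α1-adrenergic receptors Adra1a and Adra1b, and the angiotensin II receptor Agtr1a. They were taken by gene symbol and are 5 of the 23420 genes in the count table. RNA-seq was performed on liver from 16 male wild-type C57BL/6J mice in 4 groups of 4, each mouse giving 1 library. Every group was fed a 45% high-fat diet (HFD), either alone or with 0.04% of the synthetic retinoid fenretinide (FEN-HFD), for 7 days or for 20 weeks. Ages were not given and the 7-day and 20-week mice were separate animals, and the length of feeding cannot be told apart from age or cohort.

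Glucagon, vasopressin, angiotensin II and the catecholamines all raise hepatic glucose release, but through different second messengers. The glucagon receptor couples mainly to Gs, which activates adenylyl cyclase, so that cAMP and protein kinase A switch on glycogen phosphorylase kinase and the gluconeogenic gene programme. Avpr1a, Adra1a, Adra1b and Agtr1a couple to Gq, whose target phospholipase C makes inositol trisphosphate (IP3) and thereby releases calcium from the endoplasmic reticulum, which also activates phosphorylase kinase.

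On the mm10 assembly, the single-transcript Avpr1a gene lies at chr10:122448499-122453452 on the plus strand and Gcgr at chr11:120530699-120538986 on the plus strand. Adra1b shares chromosome 11 with Gcgr, at chr11:43774606-43901210 on the minus strand. Adra1a is at chr14:66635251-66771168 and Agtr1a at chr13:30336441-30382867, both on the plus strand. Annotated antisense transcripts overlap Avpr1a (Gm48877) and Gcgr (Gm11789), and the strand setting of the counting is not given in the sources used here, so reads of these 2 receptors and of their antisense partners cannot be told apart. The intronic transcript Gm48161 overlaps Agtr1a on the same strand.

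The 250 bases before the start sites of Avpr1a, the receptor with the largest log2 difference between the HFD durations, and of Gcgr, the most abundant one, are shown because their sequences differed in kind. Capitals mark matches on either strand. The motifs searched were the TATA box TATAAA, the promoter motif CCAAT and the GC box, spelled GGGCGG. The cAMP response element TGACGTCA and its first bases, TGACG, were also searched. Both come from RefSeq on GRCm38.p6, the build of mm10, and lie on the plus strand at chr10:122448249-122448498 and chr11:120530477-120530726.
Avpr1a: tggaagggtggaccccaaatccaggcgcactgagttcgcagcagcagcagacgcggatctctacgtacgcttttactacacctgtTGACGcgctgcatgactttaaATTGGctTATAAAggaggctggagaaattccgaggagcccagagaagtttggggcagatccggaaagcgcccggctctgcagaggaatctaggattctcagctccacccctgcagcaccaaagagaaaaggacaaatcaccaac
Gcgr: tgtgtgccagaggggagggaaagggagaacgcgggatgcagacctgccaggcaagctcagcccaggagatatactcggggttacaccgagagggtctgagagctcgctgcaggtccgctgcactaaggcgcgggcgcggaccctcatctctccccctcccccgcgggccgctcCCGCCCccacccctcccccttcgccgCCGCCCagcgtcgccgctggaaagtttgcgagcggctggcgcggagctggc
The Avpr1a window held TGACG at position -165, CCAAT on the opposite strand at -144 and TATAAA at -137, counted back from the start site, and 53.6% of its bases were G or C. The Gcgr window held none of these and had 2 GC boxes on the opposite strand, at -77 and -51, with 70.4% G or C, more than in 91.2% of windows. Of 32851 mouse promoter windows of this length, 12.4% held TATAAA, 33.8% CCAAT, 32.7% GGGCGG and 17.8% TGACG, which includes the windows with the whole TGACGTCA (1.55%). Adra1b has 2 such windows, 1 with 2 CCAAT matches and 41.6% G or C and another with 1 GC box and 72.8% G or C. No window of these 3 genes held TGACGTCA or the nuclear receptor motif AGGTCA, which 14% of all windows held. Promoter windows of Adra1a and Agtr1a were not used here.

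All 5 receptors were detected in every library. Levels are given in CPM, the count relative to the library total, scaled by TMM over the 16 libraries, and per kilobase of exon (CPM per kb) where genes are compared with each other. Gcgr had the highest level in 16 of 16 mice, at 112 ± 11.9 CPM per kb (SD, n = 16), with a range of 93.6 to 130. Agtr1a followed at 14.3 ± 2.57 CPM per kb and Adra1b at 11.0 ± 1.46, and these neighbours overlapped: Agtr1a was the higher of the pair in 14 of 16 mice. Avpr1a, at 4.24 ± 1.58 CPM per kb, was below Adra1b in every mouse, and its highest mouse (7.19) was below the lowest for Adra1b (8.34). Adra1a was the least abundant, at 0.635 ± 0.247 CPM per kb, and its highest mouse (1.08) was below the lowest for Avpr1a (1.31). The counts behind these levels ran from 2509 to 10982 per library for Gcgr, 424 to 1947 for Agtr1a, 320 to 1316 for Adra1b, 101 to 529 for Avpr1a and only 33 to 288 for Adra1a.

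**Figure D1:**
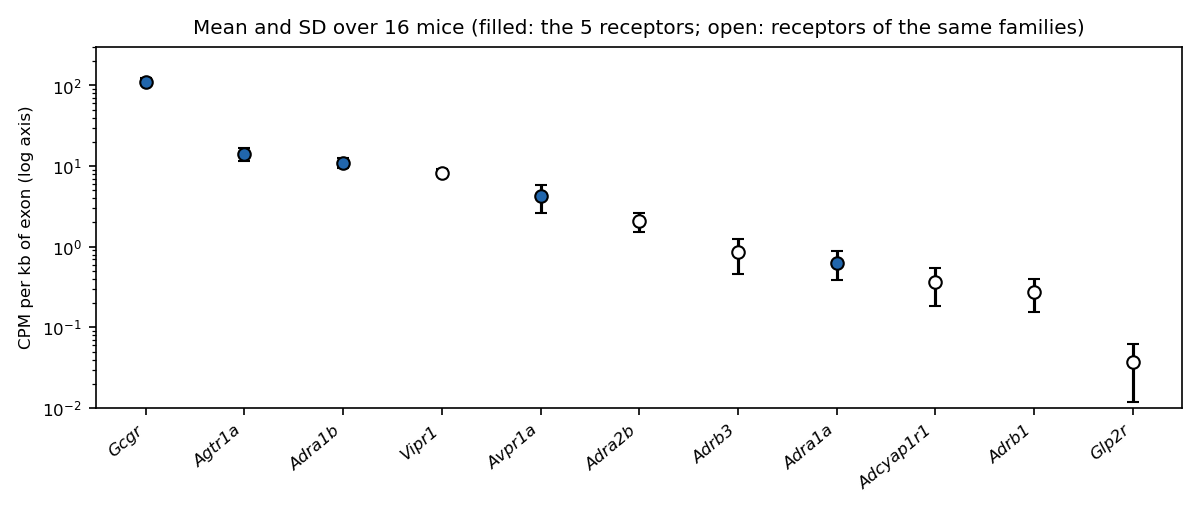
Mean level (CPM per kb of exon, log axis) of the 5 receptors (filled) and of 6 of the related receptors with a count in every mouse (open), with the SD over 16 mice as bars. Gcgr stands at 112 CPM per kb and Adra1a at 0.635, and Vipr1 (8.28) lies between Adra1b (11.0) and Avpr1a (4.24).

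Receptors of the same families were mostly scarce or not detected. Of 21 listed, 7 had a count in all 16 mice, 9 in some mice and 5 in none. The 5 without a count were the vasopressin receptors Avpr1b and Avpr2, the growth hormone-releasing hormone receptor Ghrhr and the angiotensin receptors Agtr1b and Agtr2, and a count of 0 allows up to 0.0857 to 0.312 CPM in a library (3 counts on the same TMM scale, for counting error only; the highest is mouse 29 of FEN-HFD 20 weeks). Vipr1, a receptor for vasoactive intestinal peptide that also couples to Gs, was the most abundant of the 21 at 8.28 ± 0.827 CPM per kb. The α2-adrenergic receptor Adra2b reached 2.09 ± 0.570 CPM per kb, and the β-adrenergic receptors Adrb3 and Adrb1 reached 0.864 ± 0.400 and 0.276 ± 0.119. The receptors for the other glucagon-like peptides were near the floor, with at most 3 counts per library for Glp1r and 15 for Glp2r. Of the ligand genes, glucagon (Gcg) and renin (Ren1) had no count, Avp had at most 1 and Oxt at most 2 counts in a library, whereas the angiotensin precursor Agt, a hepatocyte product, had a mean of 420 CPM.

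Library totals ran from 19218230 to 32546829 counts. The FEN-HFD 20 weeks mouse 29 stood apart, with 53.1% of its counts from the ribosomal RNA gene Rn45s against 0.466% to 1.46% in the other 15 libraries, and its values carry the fewest receptor counts. Hepatocyte markers were the most abundant of the marker lists, and none of the markers of hepatocytes, stellate, endothelial, Kupffer, smooth muscle, bile duct or lymphoid cells was without a count in a whole group. In whole liver, fewer cells of a type and less RNA per cell cannot be told apart.

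Avpr1a had its lowest mean level after 20 weeks of HFD. Its level was 16.6, 10.2, 13.3 and 13.4 CPM in the HFD mice at 7 days and 4.64, 3.5, 6.38 and 8.81 CPM in those at 20 weeks. The FEN-HFD mice had 14.7, 19.2, 12.6 and 9.39 CPM at 7 days and 14.7, 10.2, 13.0 and 10.5 CPM at 20 weeks. All 4 HFD mice at 20 weeks were thus below all 12 others, the nearest being the FEN-HFD 7 days mouse at 9.39 CPM. The other 3 groups overlapped one another. The share of all genes with such a separation from 12 mice was not counted. Between 2 groups, 17% of genes did not overlap for HFD duration and 12.8% for fenretinide at 20 weeks. Group means were 13.4 ± 2.61 CPM for HFD and 14.0 ± 4.11 for FEN-HFD at 7 days, and 5.83 ± 2.31 and 12.1 ± 2.14 at 20 weeks (SD, n = 4 each).

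**Figure D2:**
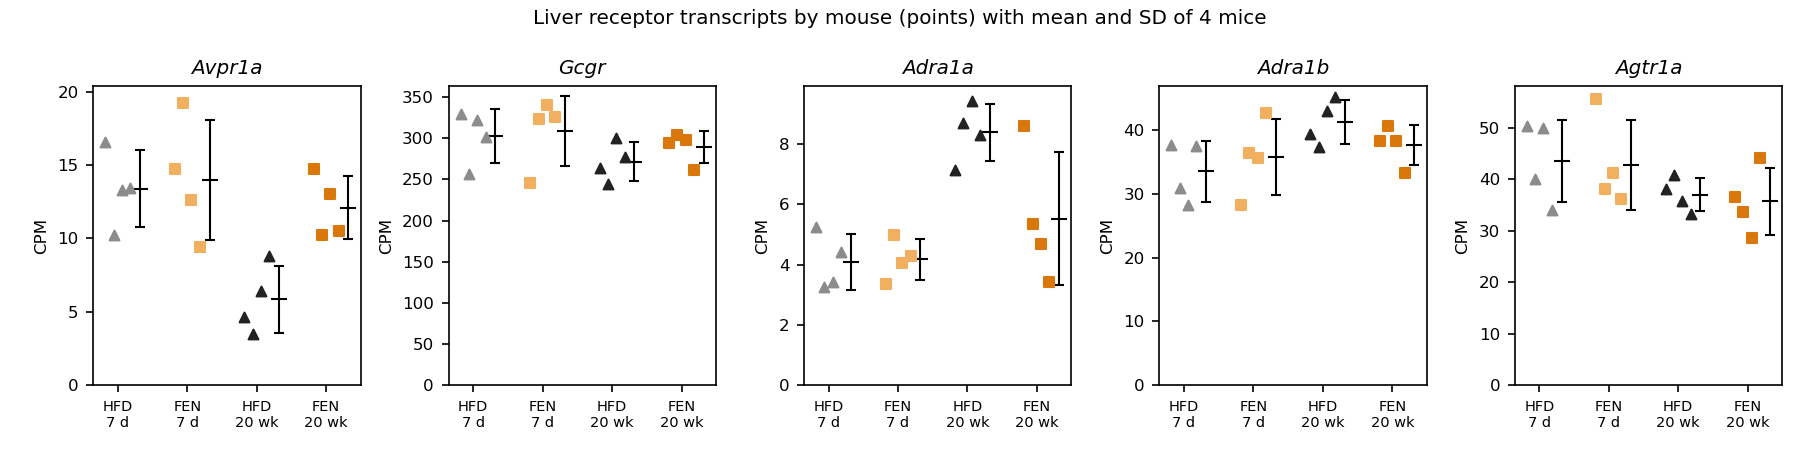
Level (CPM, from 0) of each receptor in every mouse (points, triangles HFD and squares FEN-HFD) by group, with the group mean and SD of 4 mice as bars. The 4 HFD mice at 20 weeks lie lowest for Avpr1a (3.5 to 8.81 CPM), and all 4 lie above both 7-day groups for Adra1a (7.13 to 9.42 CPM), while Gcgr overlaps across all groups.

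The question of whether receptor transcripts differed with the length of HFD feeding was answered by comparing HFD mice at 20 weeks and 7 days. Avpr1a fell by 1.22 on the log2 scale (SE 0.26, 95% interval -1.81 to -0.62), or 2.32-fold, with an edgeR quasi-likelihood adjusted p of 0.0269. Adra1a, the less abundant α1-adrenergic receptor, rose 2.04-fold, by 1.03 on the log2 scale (SE 0.17, 0.65 to 1.41, edgeR adjusted p = 0.00838). Its level was 5.24, 3.25, 3.42 and 4.42 CPM in the HFD mice at 7 days and 7.13, 8.71, 9.42 and 8.29 CPM at 20 weeks, so that these groups did not overlap. In this comparison 4.78% of 13255 genes were called higher and 2.73% lower, and the groups did not overlap for 17% of genes.

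The call of Avpr1a was less firm than that of Adra1a. Leaving out 1 mouse at a time gave Avpr1a values between -1.47 and -1.04 on the log2 scale, and the edgeR adjusted p rose above the threshold without the HFD 7 days mouse 142 (0.0733), 144 (0.0619) or 146 (0.0583) or the HFD 20 weeks mouse 25 (0.0856) or 33 (0.0559). Adra1a remained called in all 8 such fits, with values from 0.93 to 1.17 and edgeR adjusted p-values from 0.0113 to 0.0268. Neither was called when the test asked for a change of over 1.5-fold.

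**Figure D3:**
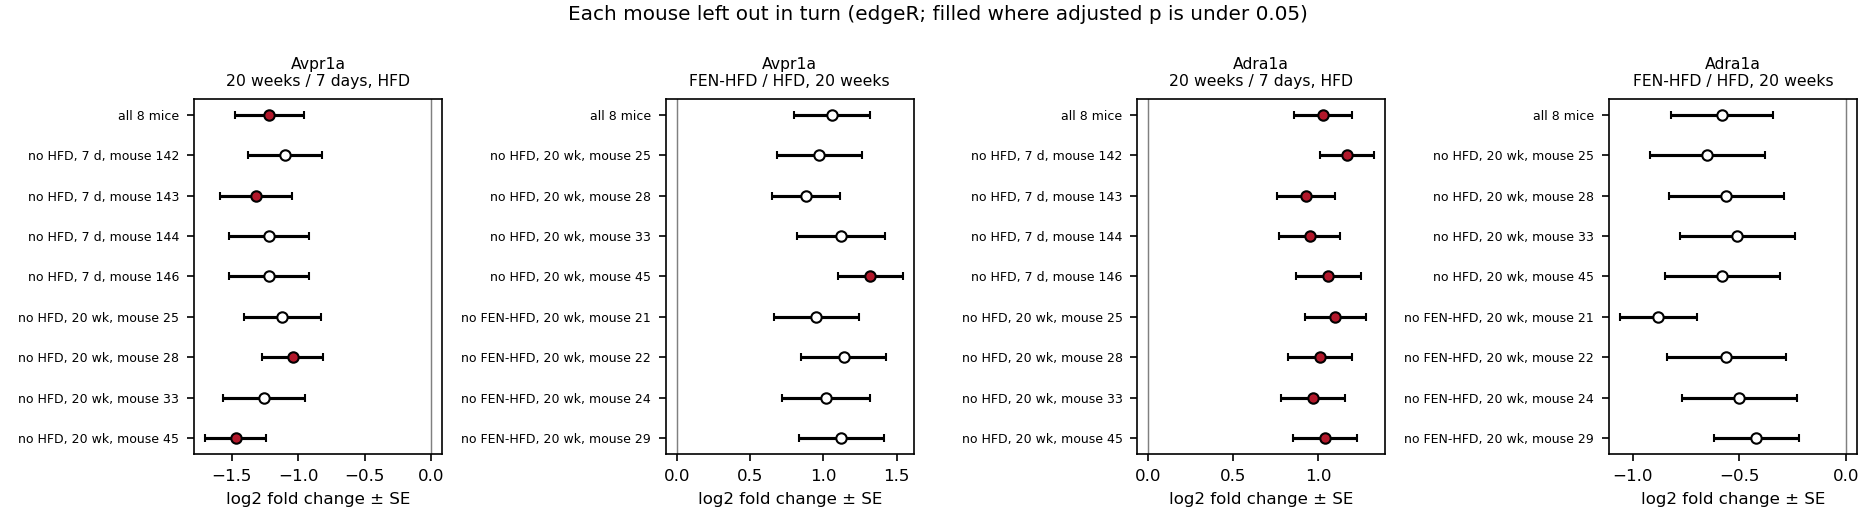
log2 fold change ± SE of Avpr1a and Adra1a with all 8 mice and with each mouse left out in turn (rows), for HFD at 20 weeks over 7 days and for FEN-HFD over HFD at 20 weeks. Points are filled where the edgeR adjusted p is under 0.05: Adra1a is filled in every row of the duration comparison, and Avpr1a in 3 of its 8 rows with a mouse left out.

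The other 3 receptors did not pass the test for HFD duration. Adra1b, the main α1-adrenergic receptor of mouse liver, had 37.7, 30.9, 28.2 and 37.6 CPM at 7 days and 39.5, 37.4, 43.1 and 45.2 CPM at 20 weeks of HFD, a log2 difference of 0.28 (0.04 to 0.52, edgeR adjusted p = 0.139). Gcgr had 330, 257, 322 and 302 CPM at 7 days and 264, 245, 301 and 277 CPM at 20 weeks, a log2 difference of -0.17 (-0.40 to 0.06, edgeR adjusted p = 0.332). Agtr1a had 50.3, 40, 49.9 and 34.0 CPM and then 38.1, 40.8, 35.7 and 33.3 CPM, a log2 difference of -0.25 (-0.54 to 0.05, edgeR adjusted p = 0.268). For each of the 3, the HFD mice at 20 weeks and at 7 days overlapped.

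In the FEN-HFD mice, none of the 5 was called between 20 weeks and 7 days (0 at an unadjusted p under 0.05 by edgeR, and 0 adjusted calls by DESeq2 or limma-voom). The log2 difference was -0.21 for Avpr1a (-0.68 to 0.25, edgeR adjusted p = 0.885) and 0.43 for Adra1a (-0.14 to 0.99, edgeR adjusted p = 0.714). Adra1a had 3.34, 4.98, 4.06 and 4.29 CPM at 7 days and 8.61, 5.36, 4.67 and 3.43 CPM at 20 weeks, with the FEN-HFD 20 weeks mouse 21 at the level of the HFD mice of that duration and mouse 29 among the 7-day values. Gcgr, Adra1b and Agtr1a gave log2 differences of -0.11, 0.07 and -0.28 with edgeR adjusted p-values of 0.908, 0.954 and 0.707. Among all 12949 genes tested, 0.849% were called higher, 0.332% lower and 6.55% did not overlap.

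The comparison of FEN-HFD with HFD at 20 weeks asked whether the retinoid altered these transcripts in long-term HFD feeding. Avpr1a was 2.08-fold higher in the FEN-HFD mice, a log2 difference of 1.06 (SE 0.26, 0.47 to 1.65), with no overlap between the groups, but the edgeR quasi-likelihood test gave an adjusted p of 0.0750, above the threshold of 0.05. It ranked 467 of 13010 genes by p. The call depended on the tool. DESeq2 (adjusted p = 0.00418), limma-voom with quality weights (0.0206) and an edgeR fit of all 16 mice (0.0306) called it, as did edgeR without the HFD 20 weeks mouse 45 (0.0268), the highest of its group. Over all alternatives the adjusted p ran from 0.00418 to 0.785 and the log2 difference from 0.88 to 1.32, higher in FEN-HFD each time. In this comparison 0.769% of genes were called higher and 1.09% lower by edgeR, and the groups did not overlap for 12.8%. The fits that called Avpr1a with all 8 mice also called more genes overall: edgeR called 100 higher and 142 lower, DESeq2 424 and 587, limma-voom 484 and 644, and the edgeR fit of 16 mice 254 and 407. The HFD mice at 20 weeks enter both this comparison and that of HFD duration, so that the opposite signs of Avpr1a in them are not independent.

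Adra1a was lower in FEN-HFD than in HFD at 20 weeks by -0.58 on the log2 scale (-1.12 to -0.04), without reaching the threshold (edgeR adjusted p = 0.239), and the groups overlapped because the FEN-HFD mouse 21 (8.61 CPM) was above 2 of the HFD mice. Leaving out that mouse gave -0.88 and an edgeR adjusted p of 0.0931, the lowest of the fits with a mouse left out. Adra1b differed by -0.13 (-0.33 to 0.08, edgeR adjusted p = 0.488), with 38.4, 40.7, 38.4 and 33.3 CPM in FEN-HFD. For Gcgr the difference was 0.09 (-0.13 to 0.31, edgeR adjusted p = 0.677), with 294, 304, 298 and 261 CPM in FEN-HFD. For Agtr1a it was -0.06 (-0.34 to 0.23, edgeR adjusted p = 0.851), with 36.5, 33.6, 28.6 and 44.1 CPM. The intervals of Gcgr, Adra1b and Agtr1a thus held no change of over 0.34 on the log2 scale in either direction. Without mouse 29 the FEN-HFD mean was 299 ± 4.69 CPM for Gcgr, 39.2 ± 1.34 for Adra1b and 32.9 ± 3.97 for Agtr1a (SD, n = 3). Of the 5 receptors, edgeR thus called 0, with 2 at an unadjusted p under 0.05 (Avpr1a and Adra1a), and DESeq2 and limma-voom each called 1, Avpr1a.

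**Figure D4:**
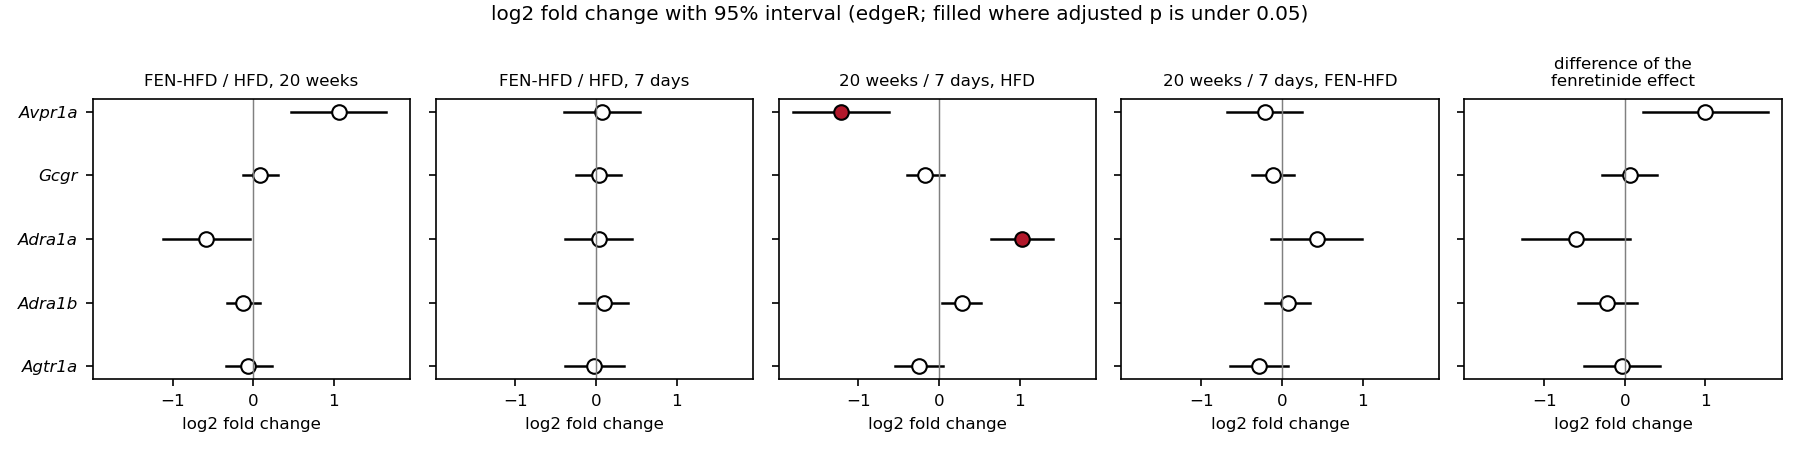
log2 fold change of each receptor (points) with its 95% interval (lines) in the 5 comparisons, with filled points where the edgeR adjusted p is under 0.05. Avpr1a (-1.22) and Adra1a (1.03) are filled in the comparison of HFD durations, and all points lie between -0.02 and 0.10 for fenretinide at 7 days.

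At 7 days, fenretinide made no difference that the test could show for any of the 5 (0 at an unadjusted p under 0.05 by edgeR and 0 adjusted calls by DESeq2 or limma-voom). The log2 differences were 0.07 for Avpr1a (-0.40 to 0.54), 0.03 for Gcgr (-0.25 to 0.31), 0.03 for Adra1a (-0.39 to 0.45), 0.10 for Adra1b (-0.21 to 0.40) and -0.02 for Agtr1a (-0.38 to 0.34), and each edgeR adjusted p was 1. The FEN-HFD mice at 7 days had 246, 323, 340 and 326 CPM of Gcgr, 28.3, 36.4, 35.6 and 42.8 CPM of Adra1b and 55.6, 38.1, 41.2 and 36.2 CPM of Agtr1a. Of 13157 genes, 0.0988% were called higher, 0% lower and 3.19% did not overlap. The difference between the fenretinide effects at 20 weeks and 7 days was tested in a fit of all 16 mice. It was 1.00 on the log2 scale for Avpr1a (0.23 to 1.77) and -0.61 for Adra1a (-1.28 to 0.07), with edgeR adjusted p-values of 0.446 and 0.621. None of the 5 was called (1 at an unadjusted p under 0.05, and 0 by DESeq2 or limma-voom), beside 0.00747% of all genes called higher and 0.0224% lower.

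Within a mouse, the balance of the receptors moved with these values. Gcgr made up 78.3% to 79.0% of the summed CPM per kb of the 5 receptors in the 4 groups. Among the 4 Gq-coupled receptors, Avpr1a made up 16 ± 1.69% in HFD and 16.4 ± 4.32% in FEN-HFD mice at 7 days, 7.58 ± 2.81% in HFD mice at 20 weeks and 15.6 ± 2.69% in FEN-HFD mice at 20 weeks. Its highest HFD mouse at 20 weeks (11.2%) was below the lowest of each other group (11.9% or more). The share of Adra1a in the same sum was 1.5 ± 0.251%, 1.52 ± 0.284%, 3.36 ± 0.354% and 2.16 ± 0.778% in the same order. Adra1b exceeded Adra1a per kb by a ratio of 21.6 ± 2.43 and 22.3 ± 2.79 at 7 days, 12.8 ± 1.62 after 20 weeks of HFD and 19.3 ± 5.69 after 20 weeks of FEN-HFD. These shares were not tested, since they restate the same counts.

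Marker sums were compared between the groups in which Avpr1a and Adra1a differed. For HFD duration the sums of most lists overlapped, but not those of Kupffer cell, endothelial and cholangiocyte markers. In that comparison edgeR called 4.78% of all genes higher and 2.73% lower, and 17% of genes did not overlap. For fenretinide at 20 weeks it called 0.769% higher and 1.09% lower, and 12.8% did not overlap. No marker list was tested as a set, so no list is said to stand out. The 10 hepatocyte markers summed to 94500 to 115000 CPM in HFD mice at 7 days, 102000 to 113000 in HFD mice at 20 weeks and 77600 to 94000 in FEN-HFD mice at 20 weeks, so that the sum was lower in the latter, where Avpr1a was higher. The markers did not move one way: the log2 difference with fenretinide at 20 weeks was -0.56 for Alb, -0.47 for Ttr and -0.35 for Trf, but 0.76 for Fgb and 0.39 for Apoa1. None of the 10 passed in edgeR (2 higher and 5 lower at an unadjusted p under 0.05), while 2 were higher and 5 lower in DESeq2 and 1 higher and 2 lower in limma-voom. In FEN-HFD mice at 7 days the hepatocyte markers summed to 83900 to 92500 CPM, also below the HFD mice of that duration. In the HFD mice, 2 of 10 hepatocyte markers were called lower at 20 weeks than at 7 days. The 12 pericentral markers summed to 7010 to 11700 CPM, 7400 to 11700 and 7550 to 12700 in these groups and overlapped, with 0 called for HFD duration and 1 called higher with fenretinide at 20 weeks. The 12 periportal markers summed to 6030 to 7670, 4620 to 6110 and 5450 to 6380 CPM, with 3 of 11 tested called lower for HFD duration. With fenretinide at 20 weeks 1 was called lower, Hsd17b13 (log2 -1.26, edgeR adjusted p = 0.0124), while the median of the list was -0.02. The 6 Kupffer cell markers summed to 403 to 909 CPM in HFD mice at 7 days, 316 to 386 at 20 weeks and 405 to 947 in FEN-HFD mice at 20 weeks, and thus were lowest in the group with the lowest Avpr1a, with 2 of 6 called lower for HFD duration and 1 called higher with fenretinide. The 6 smooth muscle markers, cells that also carry α1-adrenergic and angiotensin receptors, summed to 15 to 40.2, 21.9 to 110 and 16.8 to 22.6 CPM, with 1 of 4 called higher for HFD duration. Stellate cell markers summed to 481 to 627, 544 to 703 and 539 to 742 CPM, with 0 of 10 called for HFD duration. With fenretinide at 20 weeks 1 was called higher, Lrat (log2 0.75, edgeR adjusted p = 0.0357), and 2 were lower at an unadjusted p under 0.05. Lrat was also higher with fenretinide at 7 days (log2 0.92, edgeR adjusted p = 0.00334). Endothelial, cholangiocyte and lymphocyte markers had 0 edgeR calls in both comparisons. Endothelial markers summed to 428 to 476, 362 to 418 and 330 to 456 CPM, without overlap between the HFD groups. At an unadjusted p under 0.05 by edgeR, 4 of 8 were lower for HFD duration. Cholangiocyte markers summed to 41.7 to 47.5, 47.6 to 159 and 48.3 to 97.5 CPM, again without overlap between the HFD groups. Lymphocyte markers summed to 2.88 to 6.46, 2.45 to 4.04 and 2 to 15.4 CPM. The part of these lists in the receptor results was not tested.

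Downstream of the glucagon receptor, 3 of 37 Gs and cAMP signalling genes tested rose with HFD duration and none fell (edgeR; median log2 difference -0.03, against -0.01 for all genes). The background was 4.78% of all genes called higher and 2.73% lower, so that nothing particular to the list is read from its count, and in DESeq2 4 were higher and 3 lower. The phosphodiesterase Pde4d, which degrades cAMP, rose 3.01-fold from 4.67 ± 0.818 to 14.2 ± 3.44 CPM (log2 1.59, SE 0.19, edgeR adjusted p = 0.00204), from 3.86 to 5.67 CPM at 7 days to 11.8 to 19.3 at 20 weeks. The adenylyl cyclase Adcy6, which makes cAMP, rose 1.81-fold from 28.9 ± 3.10 to 53.0 ± 2.93 CPM (log2 0.86, SE 0.09, edgeR adjusted p = 0.00123). Prkaca, the catalytic subunit of protein kinase A, rose 1.29-fold (edgeR adjusted p = 0.0344), but kept the call only without the HFD 7 days mouse 142 when 1 mouse was left out, with adjusted p-values of up to 0.0991 otherwise. The groups did not overlap for these 3 genes, as for 17% of all genes. At an unadjusted p under 0.05 by edgeR, 7 genes of the list were higher and 3 lower. The lower ones were the cAMP sensor Rapgef4 (log2 -0.61, edgeR adjusted p = 0.0526) and the cyclases Adcy1 (-2.27, 0.0532) and Adcy4 (-0.72, 0.0559).

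Pde4d was also the only listed signalling gene that passed the test for fenretinide at 20 weeks. It fell by 1.11 on the log2 scale (SE 0.18, edgeR adjusted p = 0.0191), or 2.15-fold, to 6.25, 5.72, 8.09 and 6.35 CPM in FEN-HFD mice against 12.4, 19.3, 11.8 and 13.2 CPM in HFD mice. The groups did not overlap, and the edgeR adjusted p stayed under the threshold in 5 of 8 fits with a mouse left out, and rose above it without the HFD 20 weeks mouse 25 or the FEN-HFD 20 weeks mouse 21 or 22 (0.0807 at most). Of the 36 Gs and cAMP genes tested there, edgeR called 0 higher and 1 lower (median -0.03, against 0.01 for all genes). Of all genes, 0.769% were called higher and 1.09% lower. Higher calls numbered 1 in DESeq2, 1 in limma-voom and 0 in edgeR without mouse 29, and lower calls 5, 6 and 2. Leaving out mouse 29 also raised the edgeR calls over all genes, from 100 to 203 higher and from 142 to 221 lower. The HFD mice at 20 weeks again enter both comparisons of Pde4d.

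**Figure D5:**
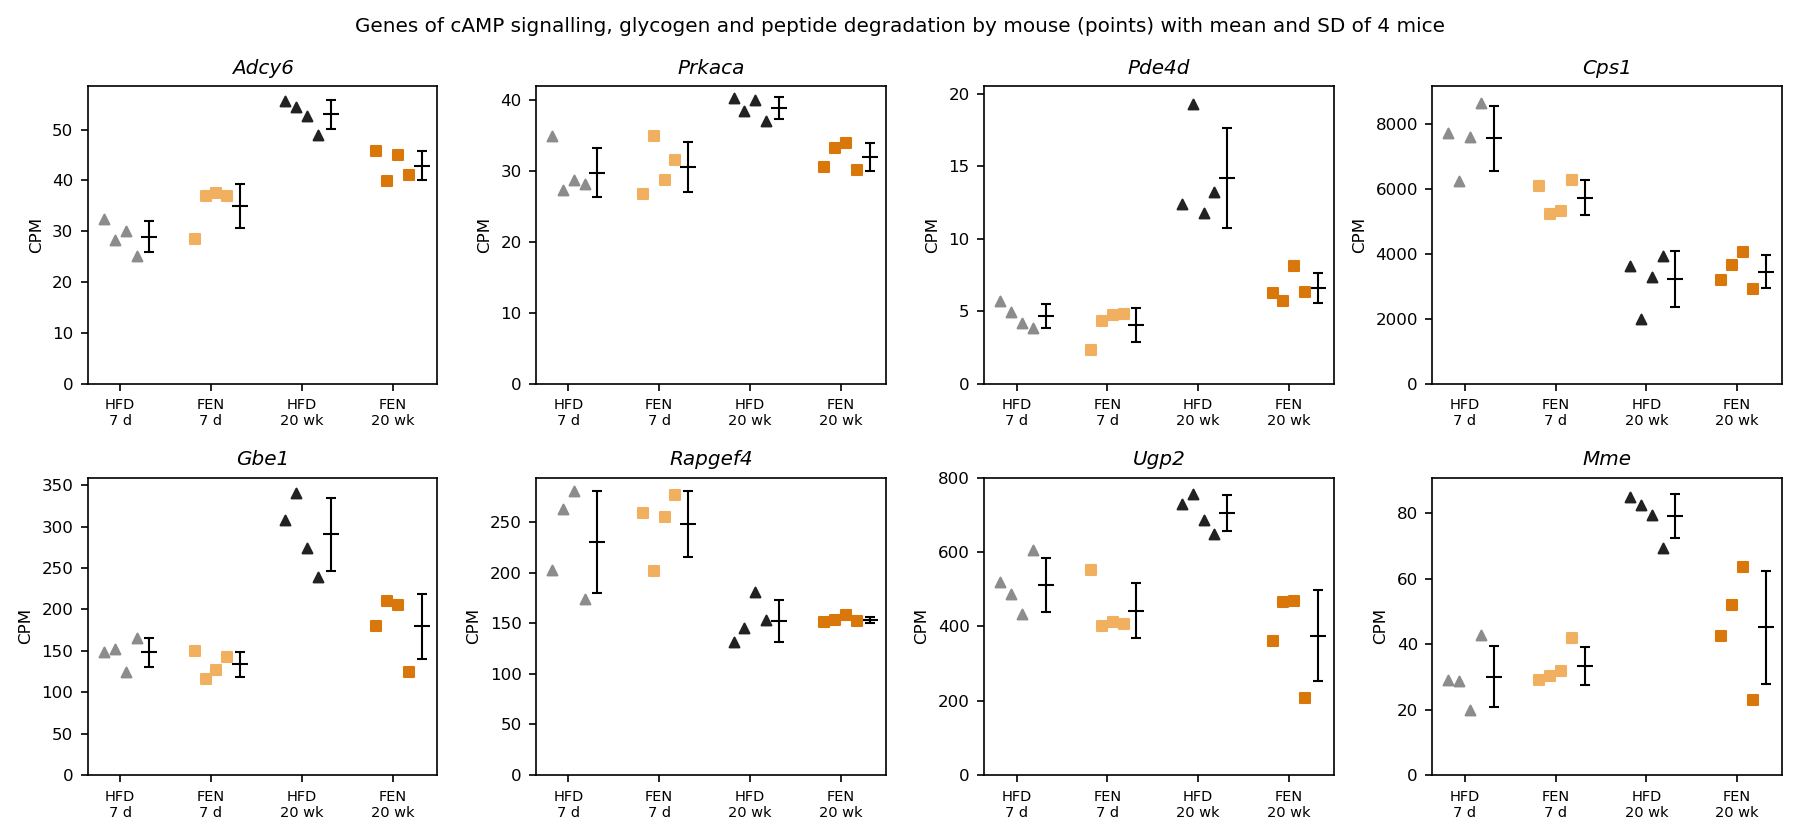
Level (CPM, from 0) of 8 listed genes in every mouse (points, triangles HFD and squares FEN-HFD) by group, with the group mean and SD of 4 mice as bars. Pde4d, Adcy6, Gbe1 and Mme are higher in all HFD mice at 20 weeks than in all HFD mice at 7 days, and Cps1 is lower.

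Genes of the Gq and calcium arm did not pass the edgeR test in any comparison. All 32 were tested, from the Gq subunits through phospholipase C to the IP3 receptors, with 6 at an unadjusted p under 0.05 for fenretinide at 20 weeks (2 higher, 4 lower) and 6 for HFD duration (4 higher, 2 lower). For fenretinide at 20 weeks, 1 gene was higher and 1 lower in DESeq2, and 1 higher and 2 lower in limma-voom. For HFD duration, 2 were higher and 2 lower in DESeq2 and none in limma-voom. The smallest p for fenretinide at 20 weeks belonged to the calcium channel subunit Orai1 (log2 -0.60, edgeR adjusted p = 0.0854) and the diacylglycerol kinase Dgka (log2 0.68, 0.0856). For HFD duration they belonged to the IP3 receptor Itpr2 (log2 -0.41, edgeR adjusted p = 0.0809) and protein kinase C ε, Prkce (log2 0.38, 0.0867). The list medians were 0.03 and 0.02. The 19 tested genes of receptor desensitisation (arrestins, receptor kinases and RGS proteins) had no edgeR call either, with 1 unadjusted p under 0.05 for fenretinide at 20 weeks and 3 for HFD duration. The leading genes were Rgs16 (log2 -0.70, edgeR adjusted p = 0.257) and Rgs5 (0.22, 0.422) for fenretinide, and Rgs3 (0.47, 0.0676) and Arrb2 (-0.30, 0.153) for HFD duration. DESeq2 called 1 of them higher for HFD duration and limma-voom 0, and both called 0 for fenretinide.

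Of 20 genes of glycogen breakdown and synthesis, the process on which both pathways converge, edgeR called 3 higher with HFD duration and 0 lower. Of all genes, it called 4.78% higher and 2.73% lower, and the list was not tested as a set. The median log2 difference was 0.26, against -0.01 for all genes, and in DESeq2 4 were higher and 2 lower. The branching enzyme Gbe1 rose 1.95-fold, from 148 ± 17.2 to 291 ± 44.1 CPM (log2 0.96, SE 0.13, edgeR adjusted p = 0.00418). Ugp2, which makes UDP-glucose, the sugar donor for glycogen synthase, rose 1.37-fold (edgeR adjusted p = 0.0496) but was called in only 1 of the 8 fits with a mouse left out, the one without the HFD 7 days mouse 146, with adjusted p-values of up to 0.130 otherwise. With fenretinide at 20 weeks, none of the 20 passed in edgeR (1 higher and 4 lower at an unadjusted p under 0.05), and DESeq2 called 4 and limma-voom 3 lower. Ugp2 was at 705 ± 47.9 CPM in HFD and 375 ± 123 in FEN-HFD mice at 20 weeks (log2 -0.91, edgeR adjusted p = 0.0749). The FEN-HFD mouse 29 was the lowest, at 207 CPM. Without it edgeR called Ugp2 lower (log2 -0.71, adjusted p = 0.0185), the 1 gene of the list called there. That fit called 203 genes higher and 221 lower over all genes, against 100 and 142 with all 8 mice. Gbe1 was at 291 ± 44.1 and 180 ± 39.4 CPM (log2 -0.69, edgeR adjusted p = 0.0771), and without mouse 29 the log2 difference was -0.55 (0.0548).

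Of 20 genes known to respond to glucagon or cAMP, none rose and 1 fell with HFD duration in edgeR (median log2 difference -0.16). This stands beside 4.78% of all genes called higher and 2.73% lower. In DESeq2 2 were higher and 2 lower, and in limma-voom 1 was higher and 2 lower. Cps1, the first enzyme of the urea cycle, fell 2.37-fold, from 7570 ± 998 to 3220 ± 857 CPM (log2 -1.25, SE 0.21, edgeR adjusted p = 0.00838), and it was called in all 8 fits with a mouse left out. In the FEN-HFD mice Cps1 fell by 0.74 on the log2 scale between 7 days and 20 weeks (edgeR adjusted p = 0.0346), but it lost the call without any of the FEN-HFD 7 days mice 61, 62, 65 and 66 or the 20 weeks mice 21 and 22 (0.155 at most). With fenretinide at 20 weeks none of the 20 passed in edgeR (4 lower at an unadjusted p under 0.05, 2 lower by both DESeq2 and limma-voom). Without mouse 29, edgeR called 1 of the list lower, beside 203 of all genes higher and 221 lower. The smallest p belonged to the aspartate aminotransferase Got1 (log2 -0.47, edgeR adjusted p = 0.0612) and the gluconeogenic enzyme Fbp1 (-0.40, 0.0836).

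Among the 7 related receptors tested for HFD duration, edgeR called 1 higher and 0 lower, beside 4.78% and 2.73% of all genes. The 1 called was Mas1, the receptor for angiotensin-(1-7) (log2 2.18, SE 0.50, edgeR adjusted p = 0.0301), but on 10 to 26 counts at 20 weeks against 1 to 6 at 7 days per library. It lost the call without the HFD 7 days mouse 142, 144 or 146 or the HFD 20 weeks mouse 25 or 28 (0.0794 at most). None of the 6 related receptors tested was called for fenretinide at 20 weeks (0 at an unadjusted p under 0.05 by edgeR, and 0 by DESeq2 or limma-voom), where the smallest p were those of Adrb1 (log2 0.61, edgeR adjusted p = 0.289) and Vipr1 (-0.12, 0.440). Of 9 ligand and renin-angiotensin genes tested, edgeR called 2 higher with HFD duration and 0 lower, beside the same 4.78% and 2.73% of all genes. Neprilysin (Mme), which cleaves glucagon and angiotensin peptides, rose 2.61-fold, from 30.1 ± 9.38 to 79.0 ± 6.77 CPM (log2 1.38, SE 0.20, edgeR adjusted p = 0.00613). Cathepsin D (Ctsd), a lysosomal protease that can cleave angiotensinogen, rose 1.38-fold (edgeR adjusted p = 0.0362), a call kept only without the HFD 20 weeks mouse 45 (0.106 at most otherwise). With fenretinide at 20 weeks edgeR called none of the 9 (3 lower at an unadjusted p under 0.05, 1 lower by both DESeq2 and limma-voom), led by Mme (log2 -0.80, edgeR adjusted p = 0.144) and the prorenin receptor Atp6ap2 (-0.25, 0.244). Without mouse 29, in which Mme was lowest (22.8 CPM), Mme was called lower (log2 -0.59, edgeR adjusted p = 0.0451), and 1 of 8 related receptors tested was called lower. The calls over all genes were 203 higher and 221 lower there, against 100 and 142 with mouse 29.

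In the FEN-HFD mice, 2 of 37 Gs and cAMP genes fell between 7 days and 20 weeks and none rose. In the list of 20 cAMP-responsive genes, 1 rose besides Cps1, which fell. Of all genes, edgeR called 0.849% higher and 0.332% lower, and neither list was tested as a set. The 2 falls in the first list were not shown to be particular to FEN-HFD: in the HFD mice the same genes missed the threshold narrowly, with log2 differences of -0.61 for Rapgef4 (edgeR adjusted p = 0.0526) and -2.27 for Adcy1 (0.0532). The exchange factor Rapgef4 (Epac2), a cAMP sensor, fell by 0.70 on the log2 scale (SE 0.11, edgeR adjusted p = 0.0116), from 248 ± 32.4 to 154 ± 3 CPM, and lost the call without the FEN-HFD 7 days mouse 65 or the 20 weeks mouse 21 (0.0659 at most). The cyclase Adcy1 fell by 3.49 (SE 0.41, edgeR adjusted p = 0.00233), on 18 to 39 counts at 7 days and 1 to 2 at 20 weeks. The immediate early gene Nr4a1, which cAMP induces, rose 2.89-fold (log2 1.53, edgeR adjusted p = 0.0211) on 12 to 47 counts, and was called in 3 of 8 fits with a mouse left out, with the call lost without the FEN-HFD 7 days mouse 61, 62 or 65 or the 20 weeks mouse 21 or 22 (0.0823 at most). This rise was not shown to be particular to FEN-HFD either. In the HFD mice the log2 difference of Nr4a1 was 0.84 (edgeR adjusted p = 0.229), and the fenretinide effects differed by 0.69 (0.722). None of the Gq, glycogen, ligand, related receptor or desensitisation genes was called by edgeR in the FEN-HFD mice (0 to 3 genes of each list at an unadjusted p under 0.05), while limma-voom made 0 to 2 calls in each and DESeq2 0 or 1. Without mouse 29, edgeR called 1 Gq gene higher and 2 lower, and 1 glycogen gene higher (Gbe1, log2 0.55, adjusted p = 0.0141). It also called 1 ligand gene higher, 1 desensitisation gene lower and again 2 Gs and cAMP genes lower. Its calls over all genes rose as well, from 110 to 269 higher and from 43 to 217 lower. For fenretinide at 7 days none of the listed receptor, ligand, Gs, Gq, glycogen, cAMP-responsive or desensitisation genes was called by edgeR, DESeq2 or limma-voom, and edgeR gave 0 to 2 genes of each list at an unadjusted p under 0.05. For the difference between the fenretinide effects edgeR called none in these lists, and the Gs and cAMP genes had 7 at an unadjusted p under 0.05, of which DESeq2 called 2 and limma-voom 1 lower, led by Adcy6 (log2 -0.58, edgeR adjusted p = 0.174).

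Some genes followed the receptors across the 16 mice, as a description only, since the mice share 4 groups and a common scaling. Among the 9478 genes whose mean reached 5 CPM, the 5 whose log2 CPM correlated most with Avpr1a were the carboxylesterase Ces4a (Pearson r = 0.93), complement component C6, Gm16551, fetuin-B (Fetub) and neuropilin 1 (Nrp1), the last 4 at 0.92. Without mouse 29 they were Fetub, the fibrinogen chains Fga, Fgg and Fgb, and Ces4a, each at 0.94, so that 2 of 5 were shared. Gcgr was most like Cox5b (0.92), a subunit of cytochrome c oxidase, Mtx1 (0.91) and Ftcd (0.91), with 1 of 3 shared without mouse 29. Adra1a was most like the transcription factor Cebpe (0.92), the fatty acid transport protein Slc27a4 (0.91) and the phosphatase subunit Ppp2r1b (0.90). Without mouse 29, Zswim7 took the place of Ppp2r1b. Adra1b was most like the aldehyde dehydrogenase Aldh2 (0.94), Drap1 (0.93) and Ormdl3 (0.91), and these 3 were kept without mouse 29. Agtr1a was most like Hist1h1e, 5830473C10Rik and Nfx1, at 0.87 each. Without mouse 29 only Nfx1 (0.88) was kept, after Nup37 (0.90) and Ocln (0.89). Among the receptors themselves, Adra1a and Adra1b varied together (r = 0.72 over 16 mice) and Adra1b and Agtr1a in opposite directions (-0.73). Avpr1a was inversely related to Adra1a (-0.54) and positively to Gcgr (0.52), with weaker Spearman values of -0.36 and 0.38.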

How the data were processed

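Liver RNA was depleted of ribosomal RNA and sequenced on a NextSeq-500. Per the labels, reads were aligned by the authors to mm10 with STAR 2.0, and the authors deposited un-normalized read counts, 1 row per gene symbol. The program, annotation and strand setting of the counting are not given in the sources used here. Groups were taken from the sample labels, which name separate mice and share no mouse number.

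The test was that of edgeR 4.0.16 under R 4.3.3 (filterByExpr, TMM, glmQLFit with robust=TRUE, glmQLFTest), which was also tested on simulated data. Benjamini-Hochberg adjustment covered all genes tested, and an adjusted p under 0.05 was a call. DESeq2 1.42.0 and limma 3.58.1 (voom with quality weights) were alternatives. Exon lengths were unions from GENCODE M21. Named genes were the 5 receptors, up to 4 called genes per list, or the 2 with the smallest p where none was called, and the genes most correlated with each receptor (CPM with 0.5 added before the logarithm). The receptors and lists were chosen with earlier results of these data known, so they are no independent support. Depth differences limit the precision of low counts, and intervals cover the spread between 4 mice per group. Some listed genes are not reported here.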

Additional observations from a re-analysis of the deposited data

How the results depend on the processing

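The log2 differences of the 5 receptors in the 5 comparisons were recomputed under each alternative, giving 435 values. Of these, 400 kept their direction and side of the threshold, 24 changed direction, 7 lost a call and 4 gained one. Most of the 400 were uncalled differences that stayed uncalled. All 7 lost calls were for HFD duration, where Avpr1a kept its call in 10 of 16 alternatives and Adra1a in 15 of 16. No receptor that was called changed direction. The changes of direction were of uncalled differences: limma-voom gave -0.12 for Avpr1a and -0.03 for Adra1a with fenretinide at 7 days, and 0.06 for Agtr1a in the difference between the fenretinide effects, and the cause was not tested. For Rgs1, a listed gene, limma-voom gave -0.23 between the FEN-HFD durations against 0.49 in edgeR. For Avpr1a with fenretinide at 20 weeks, DESeq2 (1.06), limma-voom (1.15) and the fit of 16 mice (1.06) brought the difference past the threshold, while the value hardly moved. Testing against a 1.5-fold change in edgeR ended the calls of Avpr1a (-1.22, adjusted p = 0.271) and Adra1a (1.03, adjusted p = 0.171) for HFD duration. Of 13255 genes, that stricter test still called 93 higher and 26 lower. With 1 mouse left out at a time, the log2 difference with fenretinide at 20 weeks ran from 0.88 to 1.32 for Avpr1a and from -0.16 to 0.04 for Agtr1a. With fenretinide at 7 days it ran from -0.13 to 0.22 for Avpr1a, -0.04 to 0.13 for Gcgr, -0.07 to 0.17 for Adra1a, 0 to 0.20 for Adra1b and -0.17 to 0.05 for Agtr1a. For HFD duration it ran from -1.47 to -1.04 for Avpr1a, and between the FEN-HFD durations from -0.03 to 0.16 for Adra1b. The difference between the fenretinide effects ran from -0.03 to 0.14 for Gcgr and from -0.14 to 0.13 for Agtr1a. With 4 mice per group, the low counts of Adra1a and the 1 library rich in Rn45s limit what can be detected. No paired analysis was possible because no mouse or replicate number is shared between groups. On plain library totals with no TMM scaling, the mean of FEN-HFD mice at 20 weeks was 272 CPM for Gcgr and 35.5 CPM for Adra1b, and taking Rn45s and Lars2 out of those totals raised it to 318 and 41.4 CPM, while in HFD mice at 20 weeks Gcgr went from 286 to 288 CPM. The counts of list genes by DESeq2, by limma-voom and without mouse 29, and the alternatives for listed genes, were chosen after seeing the data.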
